A study of Mus musculus with 6 samples.

Results

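The report covers 10 genes of hepatic fatty acid synthesis, taken by symbol from a table of 55401 genes: the regulators *Srebf1*, *Mlxipl* and *Thrsp*, the supply enzymes *Pklr*, *Acly* and *Me1*, and the synthetic enzymes *Acaca*, *Fasn*, *Elovl6* and *Scd1*. Each symbol had 1 entry, and all 10 were among the 10051 genes with a mean of at least 1 FPKM (fragments per transcript length and library size) that were tested. Poly(A) RNA of C57BL/6 mouse liver was sequenced in 3 groups of 2 libraries. COS+APAP (replicates 2 and 3) was costunolide, a plant sesquiterpene lactone, at 20 mg/kg, given 12 h and a second time 40 min ahead of an intraperitoneal acetaminophen (APAP) overdose of 400 mg/kg. APAP (replicates 1 and 3) was that overdose without costunolide, and both of these groups were taken 6 h after APAP. Control (replicates 1 and 3) was untreated liver, for which the labels give no hour of collection and no feeding state. Sex, age and the number of animals behind a library are not in the labels either, so that p-values measure the spread between these libraries, which may be technical. The protocol text assigns costunolide by sample position, and in accession order the position it names holds libraries titled and labelled as APAP alone. The titles, source names and treatment fields were followed here. If the protocol text were right instead, the COS+APAP and APAP values would change places. The COS+APAP titles also carry the prefix 2 and all others the prefix 1, so that any batch behind that prefix cannot be told apart from costunolide.

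De novo lipogenesis builds fatty acids from the carbon of glucose. Pyruvate kinase feeds pyruvate to mitochondria, citrate leaves them and is split to acetyl-CoA by ATP citrate lyase, acetyl-CoA carboxylase makes malonyl-CoA, and fatty acid synthase joins these units to palmitate with NADPH from malic enzyme and the pentose phosphate pathway. ELOVL6 lengthens palmitate and SCD1 puts in a double bond. In liver the program is switched on after meals by SREBP-1c, encoded by *Srebf1* and driven by insulin and LXR, and by the glucose-responsive factor ChREBP, encoded by *Mlxipl*, and it is low in fasting.

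Libraries held 71115112 to 76669799 estimated counts. Over all genes 45.4% passed the test (edgeR's quasi-likelihood test, Benjamini-Hochberg adjusted p under 0.05) for APAP against control, 22.4% for COS+APAP against APAP and 21.0% for COS+APAP against control. Of these calls 51.3%, 50.2% and 50.9% were higher. The share was 39.9% for APAP against control and 30.0% for COS+APAP against control with library totals as the scale, 40.7% and 29.4% with limma on log2(FPKM + 1), 40.4% and 30.5% with limma on log2(FPKM + 0.1), and 62.8% for COS+APAP against APAP with upper quartile scaling. Hepatocyte genes were abundant in every library, with *Alb* at 27518 and 26619 FPKM in COS+APAP, 39526 and 35830 in APAP, and 28986 and 29091 in control.

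The first comparison asked how the lipogenic genes stood 6 h after APAP. Most of the program was lower: 8 of the 10 genes fell, 0 rose and 2 (*Me1* and *Scd1*) did not pass, where 22.1% of all tested genes were called lower and 23.3% higher. A fall of at least 2-fold was reached by 7 of the 10, against 10.8% of all tested genes. The median log2 fold change of the 10 was -1.66, beside 0.00 over all tested genes. *Thrsp* fell the furthest, *Acaca* the least of the genes called. The libraries of both groups did not overlap for 8 of the 10 genes, a state shared by 76.2% of all tested genes. In whole liver RNA, fewer cells that express a gene and less RNA per cell cannot be told apart.

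*Srebf1* (ENSMUSG00000020538, chromosome 11, 60199089 to 60222581, minus strand) stood at 7.24 and 6.80 FPKM in APAP replicates 1 and 3 and at 27.7 and 29.0 FPKM in control replicates 1 and 3. Replicates lay close together and the groups far apart, with a mean of 7.02 ± 0.311 FPKM in APAP and 28.3 ± 0.94 in control (SD, n = 2 each). *Srebf1* fell by 1.87 on the log2 scale (SE 0.11, adjusted p = 0.00101 by edgeR). The count per gene does not separate its SREBP-1a and SREBP-1c transcripts. *Mlxipl* (ENSMUSG00000005373, chromosome 5, 135089890 to 135138382, plus strand) had 19.4 and 20.96 FPKM in APAP, against 83.7 and 83.45 FPKM in control. Its log2 fold change was -1.91 (SE 0.10, adjusted p = 0.000878 by edgeR). In mean FPKM the ChREBP gene was at 24.1% of control, next to 24.8% for *Srebf1*. Such percentages, here and below, are ratios of mean FPKM without the TMM scaling of the test, so they differ somewhat from the log2 fold changes. Both transcription factor genes of the pathway were thus at similar fractions of control.

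*Thrsp* encodes the Spot 14 protein, a lipogenic regulator without enzymatic activity of its own that is induced by thyroid hormone and feeding (ENSMUSG00000035686, chromosome 7, 97412938 to 97417730, minus strand). It was listed at 8.52 and 6.93 FPKM in APAP and at 189 and 269.5 FPKM in control. The log2 fold change was -4.75 (SE 0.30, adjusted p = 0.00102 by edgeR), and 3.37% of the control mean was left. With 229 ± 57.1 FPKM (SD, n = 2) it was the most abundant of the 10 in control, its lower library above the higher one of *Scd1*, whereas in APAP *Scd1*, *Me1*, *Mlxipl* and *Acly* stood above it.

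*Pklr*, the liver pyruvate kinase (ENSMUSG00000041237, chromosome 3, 89136142 to 89146594, plus strand), had 6.54 and 5.38 FPKM in APAP, against 29.0 and 30.5 FPKM in control, a log2 fold change of -2.18 (SE 0.17, adjusted p = 0.00134 by edgeR). *Acly*, the ATP citrate lyase (ENSMUSG00000020917, chromosome 11, 100476353 to 100528000, minus strand), had 11.3 and 9.0 FPKM in APAP and 23.9 and 23.6 FPKM in control, a log2 fold change of -1.08 (SE 0.15, adjusted p = 0.00416 by edgeR). For both enzymes each APAP library was below each control library. *Me1*, the cytosolic malic enzyme that yields NADPH (ENSMUSG00000032418, chromosome 9, 86581371 to 86695953, minus strand), had 22.4 and 23.6 FPKM in APAP and 23.45 and 19.5 FPKM in control. Its groups overlapped, and the log2 fold change was 0.23 with a 95% interval of -0.09 to 0.56 (adjusted p = 0.192 by edgeR), an interval that leaves out a halving or a doubling.

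*Fasn*, the fatty acid synthase (ENSMUSG00000025153, chromosome 11, 120805846 to 120824547, minus strand), had 7.42 and 6.21 FPKM in APAP and 35.1 and 44.3 FPKM in control. Its log2 fold change was -2.40 (SE 0.17, adjusted p = 0.00118 by edgeR), and it was at 17.2% of its control mean. *Acaca*, the cytosolic acetyl-CoA carboxylase that makes its substrate (ENSMUSG00000020532, chromosome 11, 84129672 to 84401645, plus strand), had 2.42 and 2.67 FPKM in APAP and 3.66 and 4.53 FPKM in control. Its mean FPKM was 62.1% of control, and its log2 fold change was -0.55 (SE 0.13, adjusted p = 0.0216 by edgeR). The *Acaca* call is the weakest of the 8 and was lost without APAP replicate 1 (adjusted p = 0.0874), APAP replicate 3 (0.0639) or control replicate 3 (0.08). *Acacb*, the mitochondrial carboxylase of the same family, had 4.10 FPKM in both APAP libraries and 3.92 and 4.79 FPKM in control, and did not pass (log2 fold change 0.05, 95% interval -0.30 to 0.41, adjusted p = 0.781), with a sign that turned under other scalings.

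*Elovl6*, the elongase of palmitate (ENSMUSG00000041220, chromosome 3, 129532355 to 129634971, plus strand), had 3.94 and 3.09 FPKM in APAP and 9.88 and 11.15 FPKM in control, a log2 fold change of -1.44 (SE 0.17, adjusted p = 0.00278 by edgeR). *Scd1*, the stearoyl-CoA desaturase (ENSMUSG00000037071, chromosome 19, 44394455 to 44407709, minus strand), had 145 and 108 FPKM in APAP and 163 and 115 FPKM in control. The *Scd1* groups overlapped and the log2 fold change was 0.00, but libraries of a group differed so much that the 95% interval ran from -1.02 to 1.02 (adjusted p = 0.997 by edgeR), so that a change close to 2-fold in either direction was not detectable with these libraries. *Scd2*, its close relative, was listed at 0.05 and 0.02 FPKM in APAP and at 0.02 and 0.04 FPKM in control and was not tested. *Scd1* had the highest mean level of the 10 genes in COS+APAP and in APAP.

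**Figure D1:**
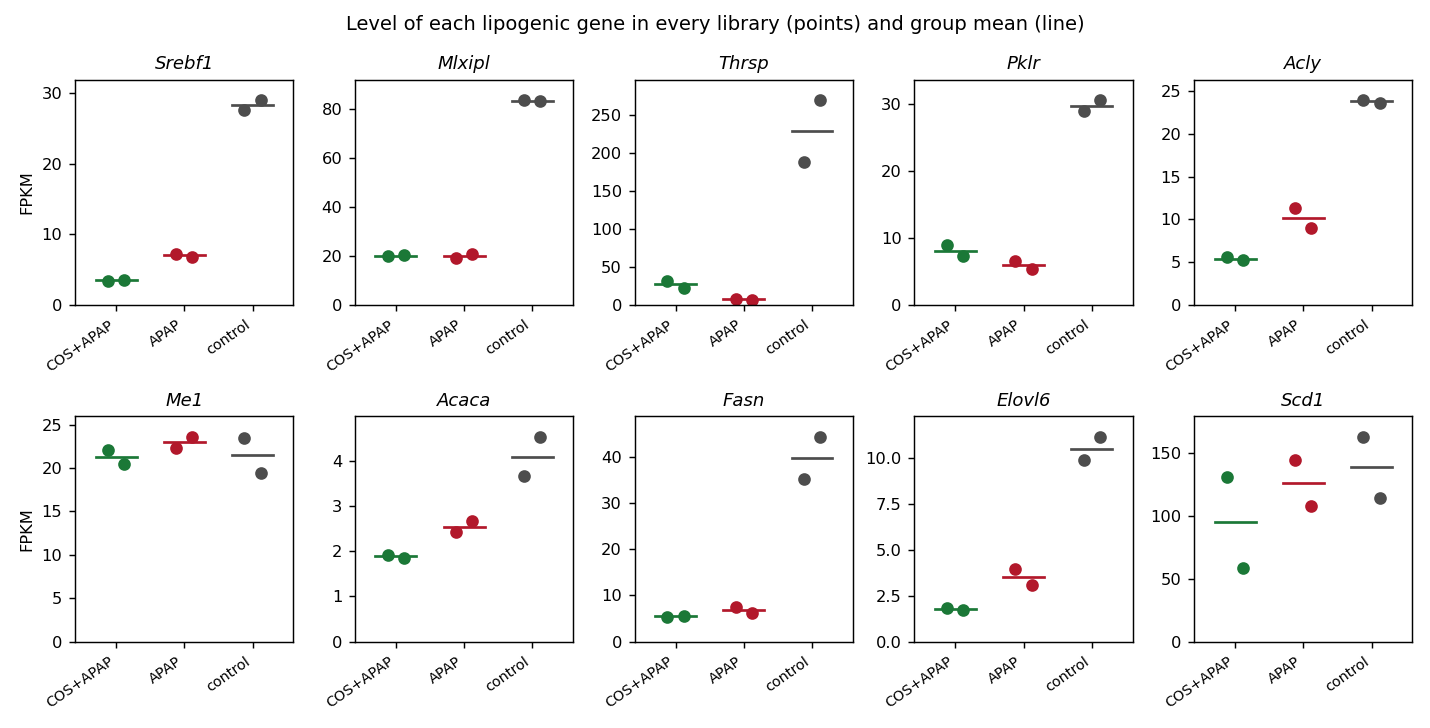
FPKM of the 10 lipogenic genes on linear axes from 0, with a point for each library and a line at the mean of each group (2 libraries each; COS+APAP, APAP and control from left to right). *Srebf1*, *Mlxipl*, *Thrsp*, *Pklr*, *Acly*, *Acaca*, *Fasn* and *Elovl6* lie highest in control, while the groups of *Me1* and *Scd1* overlap control, and *Thrsp* and *Pklr* lie higher in COS+APAP than in APAP.

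By the log2 fold change of the test, *Fasn*, *Pklr* and *Thrsp* fell together at least 4-fold. The 250 bases before their starts are therefore shown (RefSeq, GRCm38.p6, 5′ to 3′ on the strand of the gene). On that scale *Mlxipl* fell 3.77-fold and *Srebf1* 3.66-fold, and their windows are not shown. Capitals mark matches, on either strand, to the NF-Y box CCAAT, the Sp1 box GGGCGG, the E-box CACGTG, the sterol regulatory element TCACNCCAC bound by SREBP, and the carbohydrate response element bound by ChREBP, which pairs E-box-like sequences across a fixed spacer. The intervals are chr11:120824548-120824797 on the minus strand for *Fasn*, chr3:89136373-89136622 on the plus strand for the downstream start of *Pklr*, and chr7:97417551-97417800 on the minus strand for *Thrsp*.
Fasn: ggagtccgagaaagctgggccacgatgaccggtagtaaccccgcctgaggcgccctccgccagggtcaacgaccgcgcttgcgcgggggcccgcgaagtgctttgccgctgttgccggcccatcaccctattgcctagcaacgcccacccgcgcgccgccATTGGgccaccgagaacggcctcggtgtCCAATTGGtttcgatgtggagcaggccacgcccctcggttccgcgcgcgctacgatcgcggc
Pklr: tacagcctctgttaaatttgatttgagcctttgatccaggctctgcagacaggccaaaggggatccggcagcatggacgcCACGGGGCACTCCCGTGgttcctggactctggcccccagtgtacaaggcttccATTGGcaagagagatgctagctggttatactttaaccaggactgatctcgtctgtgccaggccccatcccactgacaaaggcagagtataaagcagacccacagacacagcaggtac
Thrsp: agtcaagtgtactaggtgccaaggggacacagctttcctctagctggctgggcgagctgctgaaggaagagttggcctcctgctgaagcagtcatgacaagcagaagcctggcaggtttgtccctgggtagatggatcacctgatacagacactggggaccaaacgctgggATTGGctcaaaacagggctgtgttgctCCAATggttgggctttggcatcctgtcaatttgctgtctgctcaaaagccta
The *Pklr* stretch holds 1 carbohydrate response element, from 170 to 154 bases before the start, which reads the same pattern on both strands, and an NF-Y box nearer to the start. The window of the upstream *Pklr* start, not shown, holds no match to any of these motifs. *Fasn* holds 3 NF-Y boxes, of which the pair nearest the start overlaps on opposite strands, and *Thrsp* holds 2. Promoter windows from 250 bases before to 50 after a start were found for 9 of the 10 genes, 14 windows in all. The carbohydrate response element was in 1 of the 14 windows and in 0.557% of all 32851 mouse windows, the sterol regulatory element in 1 (a *Mlxipl* start) and in 1.24%, and the E-box in 1 (the other *Mlxipl* start) and in 7.15%. The NF-Y box was in 8 of the 14 windows and in 37.4% of all, and the Sp1 box in 5 and in 35.7%. A match is a description of the letters and not a bound site.

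The second comparison asked what costunolide ahead of APAP changed. The lipogenic genes did not move one way: *Srebf1*, *Acly* and *Elovl6* fell further, *Thrsp* rose, and 6 did not pass. These were 3 of 10 genes lower and 1 of 10 higher, beside 11.1% and 11.2% of all tested genes, and the median log2 fold change was -0.35 beside 0.01 over all tested genes. Libraries of the 2 groups did not overlap for 8 of the 10 genes and for 68.5% of all tested genes.

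*Srebf1* had 3.45 and 3.60 FPKM in COS+APAP replicates 2 and 3, against 7.24 and 6.80 FPKM in APAP, a log2 fold change of -0.97 (SE 0.11, adjusted p = 0.00756 by edgeR). *Acly* had 5.55 and 5.29 FPKM in COS+APAP and 11.3 and 9.0 FPKM in APAP (log2 fold change -0.89, SE 0.15, adjusted p = 0.0169 by edgeR). *Elovl6* had 1.84 and 1.70 FPKM in COS+APAP and 3.94 and 3.09 FPKM in APAP (log2 fold change -0.98, SE 0.17, adjusted p = 0.0176 by edgeR). These 3 genes were at 50.2%, 53.3% and 50.4% of their APAP means. The *Srebf1* call stood whichever library was left out, whereas those of *Acly* and *Elovl6* were lost without COS+APAP replicate 2 (adjusted p = 0.0741 and 0.0727), COS+APAP replicate 3 (0.0756 and 0.0813) or APAP replicate 1 (0.0543 and 0.0604). *Acaca* had 1.92 and 1.85 FPKM in COS+APAP and 2.42 and 2.67 FPKM in APAP, which did not pass (log2 fold change -0.41, 95% interval -0.74 to -0.08, adjusted p = 0.0796 by edgeR), but did with DESeq2's test (-0.43, adjusted p = 0.0207). *Fasn* had 5.39 and 5.54 FPKM in COS+APAP and 7.42 and 6.21 FPKM in APAP, which did not pass either (log2 fold change -0.30, 95% interval -0.71 to 0.10, adjusted p = 0.229 by edgeR).

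*Thrsp* went the other way, with 31.8 and 22.2 FPKM in COS+APAP, against 8.52 and 6.93 FPKM in APAP, a log2 fold change of 1.82 (SE 0.26, adjusted p = 0.0117 by edgeR). *Pklr* had 8.91 and 7.26 FPKM in COS+APAP and 6.54 and 5.38 FPKM in APAP, groups apart but without passing (log2 fold change 0.46, 95% interval 0.05 to 0.86, adjusted p = 0.102 by edgeR). *Mlxipl* had 19.9 and 20.4 FPKM in COS+APAP and 19.4 and 20.96 FPKM in APAP. The *Mlxipl* groups overlapped with a log2 fold change of 0.02 and a 95% interval of -0.22 to 0.26 (adjusted p = 0.908 by edgeR), the narrowest of the 10 genes. *Me1* had 22.1 and 20.5 FPKM in COS+APAP and 22.4 and 23.6 FPKM in APAP, the nearest libraries of the groups lying closer together than those within a group (log2 fold change -0.09, 95% interval -0.42 to 0.23, adjusted p = 0.645 by edgeR). *Scd1* had 131 and 58.9 FPKM in COS+APAP, a wider gap within the group than its distance from APAP (log2 fold change -0.40, 95% interval -1.42 to 0.63, adjusted p = 0.517 by edgeR).

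The third comparison set COS+APAP against control and shares its libraries with the other comparisons. Again 8 of the 10 genes fell, 0 rose and 2 (*Me1* and *Scd1*) did not pass, beside 10.3% of all tested genes called lower and 10.7% higher. At least 2-fold falls were reached by 7 of the 10, beside 5.04% of all tested genes. The log2 fold changes were -2.93 for *Thrsp*, -2.85 for *Srebf1*, -2.70 for *Fasn*, -2.41 for *Elovl6*, -1.97 for *Acly*, -1.90 for *Mlxipl*, -1.72 for *Pklr* and -0.96 for *Acaca*, with adjusted p between 0.00157 (*Srebf1*) and 0.01 (*Acaca*) by edgeR. The *Acaca* call was lost without COS+APAP replicate 3 (adjusted p = 0.0622). *Srebf1* was at 12.4% of its control mean in COS+APAP and at 24.8% in APAP, *Acly* at 22.8% and 42.8%, and *Elovl6* at 16.8% and 33.4%. *Thrsp* was at 11.8% of its control mean in COS+APAP and at 3.37% in APAP, and *Mlxipl* at 24.1% in both. Libraries did not overlap for 8 of the 10 genes, and for 67.3% of all tested genes.

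**Figure D2:**
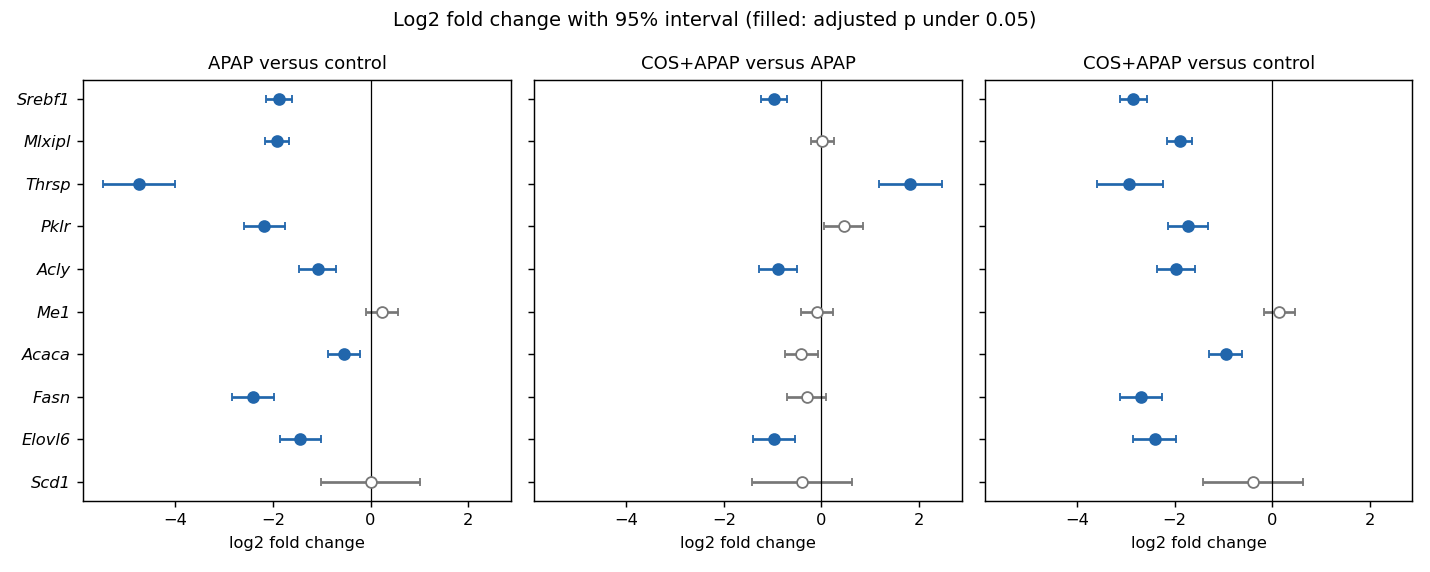
Log2 fold change of each of the 10 genes in the 3 comparisons, with bars for the 95% interval of the fit and filled points for genes with adjusted p under 0.05. In APAP versus control and in COS+APAP versus control 8 points lie filled below 0, and in COS+APAP versus APAP *Srebf1*, *Acly* and *Elovl6* lie filled below 0 and *Thrsp* filled above it.

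Genes around the pathway moved in both directions after APAP, as did all tested genes, of which 23.3% were called higher and 22.1% lower. Of 11 tested genes that control SREBP and LXR signalling 4 rose, 2 fell and 5 did not pass (median log2 fold change 0.08). *Insig2*, which holds the SREBP complex in the endoplasmic reticulum, rose by 3.30, at 149 and 198 FPKM in APAP and 22.4 and 16.3 FPKM in control. Its relative *Insig1*, itself an SREBP target, had 60.7 and 25.7 FPKM in APAP and 109 and 119 FPKM in control and did not pass (-1.25, adjusted p = 0.0511 by edgeR). *Ppargc1b*, a coactivator of SREBP, rose by 2.07, and *Nr1h3*, which encodes LXRalpha, fell by 0.71. *Mid1ip1*, the paralog of *Thrsp*, fell by 2.78, with 3.37 and 3.16 FPKM in APAP and 10.2 and 39.4 FPKM in control. The control libraries of *Mid1ip1* differ widely: without control replicate 3 its value was -1.51, and the call was lost without APAP replicate 1 (adjusted p = 0.0753) or APAP replicate 3 (0.0808). Of 8 tested partners of the carbohydrate response 3 rose, 2 fell and 3 did not pass (median -0.02). Here *Rgs16*, a G protein regulator, rose by 2.07, while the arrestin *Arrdc4* fell by 0.56 and the fructokinase *Khk* by 0.46. The *Arrdc4* call was lost on leaving out any of the 6 libraries (adjusted p up to 0.148), and that of *Khk* without any library but COS+APAP replicate 3 (up to 0.169).

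Glucose-handling genes moved in both directions, beside 23.3% of all tested genes called higher and 22.1% lower. Of 11 tested genes of glucose entry and glycolysis 4 rose, 4 fell and 3 did not pass (median -0.15). *Pfkfb1*, a liver enzyme that regulates glycolysis, fell by 1.68. *Pkm*, the pyruvate kinase of most other tissues, rose by 1.62, with 7.19 and 5.62 FPKM in APAP and 2.53 and 2.05 FPKM in control, and *Pgk1*, phosphoglycerate kinase, by 0.90. Of 14 tested genes of citrate, acetyl-CoA and NADPH supply 2 rose, 6 fell and 6 did not pass (median -0.28). *Acss2*, which makes acetyl-CoA from acetate, fell by 2.09, at 3.17 and 3.56 FPKM in APAP and 15.2 and 16.3 FPKM in control, and *Idh1*, a cytosolic source of NADPH, fell by 1.05. The pentose phosphate enzymes *Pgd* and *G6pdx*, other sources of NADPH, rose by 1.08 and 1.19, the *G6pdx* call being lost without APAP replicate 3 (adjusted p = 0.0512), control replicate 1 (0.0619) or control replicate 3 (0.063). Of 8 tested genes of the carboxylase and its kinase AMPK 0 rose and 1 fell (median -0.15), the AMPK subunit *Prkag2* with -0.90.

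Among 12 tested genes of fatty acid elongation and desaturation, not all of which act on palmitate, 2 rose, 2 fell and 8 did not pass (median -0.20). Over all tested genes 23.3% were called higher and 22.1% lower. The elongase *Elovl3* rose by 3.50, at 67.6 and 93.0 FPKM in APAP and 9.06 and 6.49 FPKM in control, and the polyunsaturated fatty acid elongase *Elovl5* by 1.18, where *Elovl6* fell. The desaturase family member *Fads6* fell by 0.85 and the dehydratase *Hacd2* by 0.37. The *Elovl5* call was lost without APAP replicate 1 (adjusted p = 0.0614), control replicate 1 (0.06) or control replicate 3 (0.0537), and that of *Hacd2* on leaving out any of the 6 libraries (up to 0.111). Of 13 tested genes of acyl activation and triglyceride assembly 5 rose, 2 fell and 6 did not pass (median 0.64). The phosphatidate phosphatase *Lpin2* rose by 1.75 and the acyltransferase *Agpat3* by 0.99, while the acyl-CoA synthetase *Acsl3* fell by 1.42 and the acyltransferase *Agpat2* by 0.70. Of 10 tested genes of insulin signalling 3 rose, 1 fell and 6 did not pass (median 0.37). The forkhead factors *Foxo1* and *Foxo3* rose by 1.03 and 0.98, and the receptor substrate *Irs1* fell by 0.66. The calls of *Foxo3* and *Irs1* were lost without APAP replicate 1 (adjusted p = 0.0563 and 0.0727) or control replicate 3 (0.0856 and 0.0725), that of *Foxo3* also without APAP replicate 3 (0.0805) and that of *Irs1* without control replicate 1 (0.0808).

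Genes that follow fasting and the hour of the day moved beside the lipogenic genes after APAP, and their part in the result was not tested. Of 9 tested fasting response genes 5 rose, 0 fell and 4 did not pass (median 1.41). Over all tested genes 23.3% were called higher and 22.1% lower. The hepatokine *Fgf21* rose by 5.68 and the insulin-repressed *Igfbp1* by 5.12 (SE 1.01). The control libraries of *Igfbp1* differ widely, at 40.5 and 5.13 FPKM, against 803 and 646 FPKM in APAP. The gluconeogenic *Pck1* did not pass, with 383 and 505 FPKM in APAP and 676 and 363 FPKM in control (-0.10, adjusted p = 0.836 by edgeR). Of 14 tested clock genes 4 rose, 3 fell and 7 did not pass (median 0.48). *Per3* fell by 4.77 and *Dbp* fell by 4.09, while *Arntl* rose by 2.80 and *Nr1d1* by 1.87.

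Around the pathway, COS+APAP against APAP also gave calls in both directions, beside 11.2% of all tested genes called higher and 11.1% lower. Of the 24 genes that the naming rule picked for COS+APAP against APAP, 20 lost the call without at least 1 library (adjusted p up to 0.159). The other 4 were *Pkm*, which fell by 2.18, *Agpat2*, which fell by 1.04, *Pfkfb1*, which rose by 1.59, and the clock gene *Nr1d1*, which fell by 2.46. *Agpat2* had 23.2 and 23.5 FPKM in COS+APAP and 48.9 and 48.8 FPKM in APAP, and *Pfkfb1* had 10.8 and 11.6 FPKM in COS+APAP and 3.29 and 4.27 FPKM in APAP. *Insig1* fell by 2.16, at 10.4 and 8.89 FPKM in COS+APAP and 60.7 and 25.7 FPKM in APAP, a value of -1.37 without APAP replicate 1 and a call lost without COS+APAP replicate 2 (adjusted p = 0.091) or replicate 3 (0.1). The acyl-CoA synthetase *Acsl5* fell by 1.24, a call lost without COS+APAP replicate 2 (0.0516), COS+APAP replicate 3 (0.0667) or APAP replicate 1 (0.0531). In the list of acyl activation and triglyceride assembly 0 of 13 rose, 3 fell and 10 did not pass, with a median of -0.94 beside 0.01 over all tested genes. In the list of citrate, acetyl-CoA and NADPH supply 3 of 14 rose and 0 fell, and in that of elongation and desaturation 1 of 12 rose and 2 fell, the elongase *Elovl5* by 1.25 and the desaturase *Fads2* by 1.18. Both calls were lost without COS+APAP replicate 3 (adjusted p = 0.0708 and 0.0556) or APAP replicate 1 (0.0983 and 0.103), that of *Fads2* also without APAP replicate 3 (0.0545). *Mid1ip1* did not pass (-0.23, 95% interval -1.67 to 1.22), nor did *Acacb* (-0.28, 95% interval -0.63 to 0.08).

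**Figure D3:**
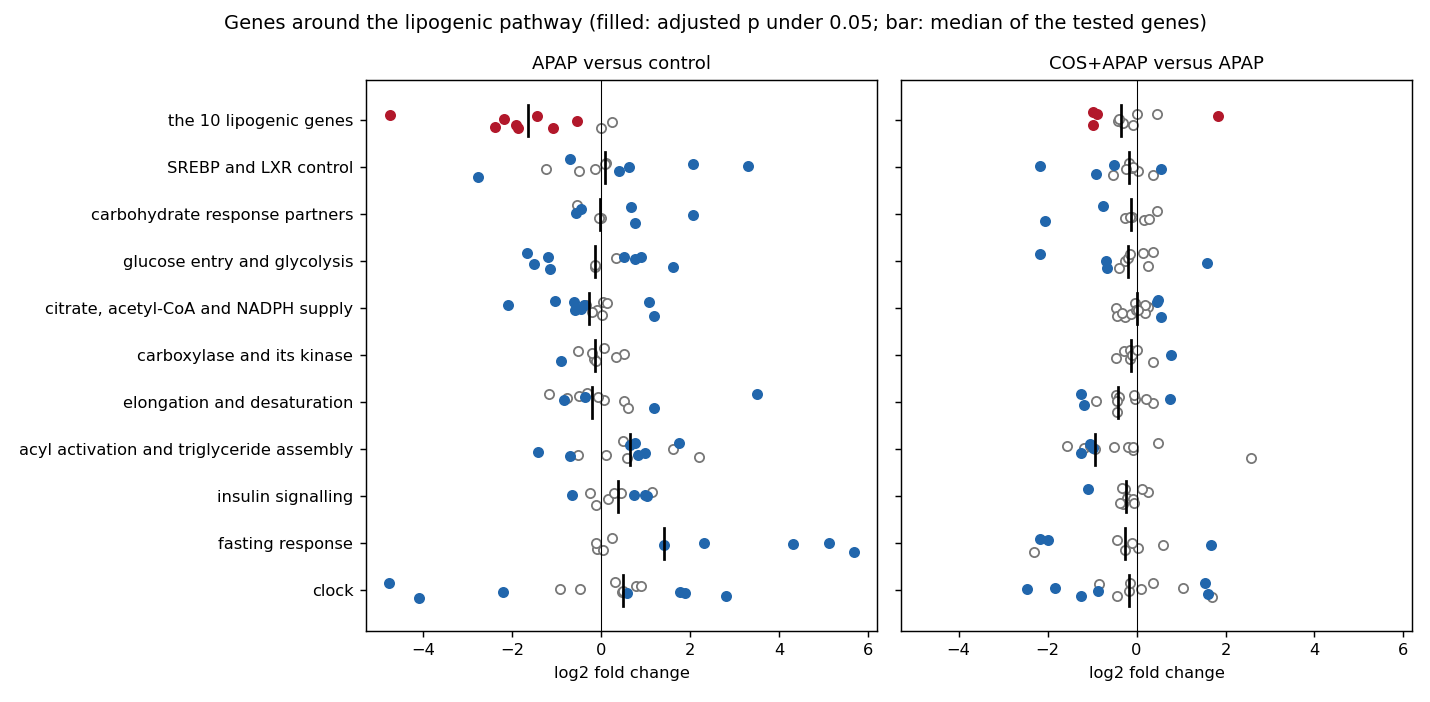
Log2 fold changes of the 10 lipogenic genes (top row) and of the tested genes of 10 surrounding lists for APAP versus control (left) and COS+APAP versus APAP (right); filled points have adjusted p under 0.05 and bars mark medians. On the left the 10 genes have a median of -1.66 and no surrounding list has one below -0.28; on the right the lowest median, -0.94, is that of triglyceride assembly.

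Against control, 10 of the 28 genes picked for COS+APAP kept the call whichever library was left out, and the others lost it (adjusted p up to 0.193). Those lower included *Per3* (-3.18), *Acsl3* (-2.39), *Acss2* (-1.83) and *Agpat2* (-1.74). Higher were *Fgf21* (3.50), *Insig2* (2.75), the clock output factor *Hlf* (1.86) and *Pgd* (1.06). *Insig1* stood at -3.41, a call lost without COS+APAP replicate 3 (adjusted p = 0.0565).

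Markers of cell types and zones moved beside these genes, and their part in the results was not tested. The 10 pericentral hepatocyte markers summed to 3370 and 2790 FPKM in COS+APAP, 936 and 1350 FPKM in APAP, and 3480 and 2680 FPKM in control. *Cyp2e1* alone gave 2773 and 2265 FPKM of this sum in COS+APAP, 816 and 1189 in APAP, and 2360 and 1644 in control. All 8 tested pericentral markers fell for APAP against control, beside 22.1% of all tested genes. For COS+APAP against APAP 7 of 8 rose, beside 11.2% of all tested genes. In that comparison *Srebf1*, *Acly* and *Elovl6* fell, *Thrsp* rose and the other 6 lipogenic genes did not pass. For COS+APAP against control 0 of the 8 rose, 2 fell and 6 did not pass, beside 10.3% of all tested genes called lower. The glutamine synthetase *Glul* was at 129 and 82.9 FPKM in COS+APAP, 18.0 and 27.8 FPKM in APAP, and 159 and 141 FPKM in control. The 10 periportal markers summed to 4360 and 4270 FPKM in COS+APAP, 5660 and 5400 FPKM in APAP, and 2970 and 2390 FPKM in control. The 10 hepatocyte markers summed to 50700 and 48600 FPKM in COS+APAP, 64100 and 61800 FPKM in APAP, and 53300 and 52500 FPKM in control. The pericentral sum was lowest in the APAP libraries. The periportal markers did not move one way: for COS+APAP against APAP 2 of 10 rose, 3 fell and 5 did not pass. Over all tested genes 11.2% were called higher and 11.1% lower. The apolipoprotein gene *Apoa4* alone gave 948 and 625 FPKM of the periportal sum in COS+APAP, 3017 and 2233 FPKM in APAP, and 408 and 266 FPKM in control. Endothelial markers (8 of 8 tested) summed to 18.9 and 16.6 FPKM in COS+APAP, 43.8 and 39.6 FPKM in APAP, and 30.0 and 34.6 FPKM in control. Erythroid markers (5 of 6 tested) summed to 309 and 316 FPKM in COS+APAP, 1490 and 1080 FPKM in APAP, and 298 and 269 FPKM in control. Stellate cell markers (4 of 8 tested) summed to 20.0 and 15.3 FPKM in COS+APAP, 53.6 and 45.2 FPKM in APAP, and 38.3 FPKM in both control libraries. The endothelial, erythroid and stellate sums were all highest in the APAP libraries, but not every marker was. For APAP against control 3 of 8 tested endothelial, 4 of 5 erythroid and 3 of 4 stellate markers rose and 0 fell. Over all tested genes 23.3% were called higher. The untested stellate marker *Lrat* had 0.51 and 0.57 FPKM in APAP and 1.66 and 1.85 FPKM in control. *Col1a1*, also untested, had 1.02 and 0.63 FPKM in APAP and 1.89 and 1.23 FPKM in control. Kupffer and macrophage markers (8 of 8 tested) summed to 74.5 and 83.1 FPKM in COS+APAP, 71.4 and 93.0 FPKM in APAP, and 64.4 and 58.2 FPKM in control, and neutrophil markers (3 of 8 tested, 2 at 0 in every library) to 3.47 and 2.07 FPKM in COS+APAP, 30.5 and 9.80 FPKM in APAP, and 3.41 and 5.74 FPKM in control.

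Adipocytes also make fatty acids, and the part of their markers in the results was not tested. The 10 adipocyte markers (6 tested) summed to 13.9 and 12.8 FPKM in COS+APAP, 15.8 and 10.5 FPKM in APAP, and 13.7 and 12.5 FPKM in control. For APAP against control 1 of the 6 rose, 3 fell and 2 did not pass, for COS+APAP against APAP 1 rose and 0 fell, and for COS+APAP against control 1 rose and 1 fell. Over all tested genes 23.3%, 11.2% and 10.7% were called higher in these comparisons and 22.1%, 11.1% and 10.3% lower. Lower for APAP against control were *Pparg*, *Adrb3* and *Lpl*, and higher was the fatty acid binding protein gene *Fabp4* (1.63, adjusted p = 0.00375 by edgeR). *Pparg*, a nuclear receptor that drives lipid storage, had 3.56 and 3.68 FPKM in COS+APAP, 0.41 and 0.55 FPKM in APAP, and 2.98 and 2.20 FPKM in control. It fell by 2.30 on the log2 scale for APAP against control (adjusted p = 0.00213 by edgeR) and rose by 2.94 for COS+APAP against APAP (adjusted p = 0.00555 by edgeR). *Adrb3*, an adrenergic receptor gene, had 1.01 and 1.08 FPKM in COS+APAP, 0.38 and 1.22 FPKM in APAP, and 4.02 and 3.71 FPKM in control. Like most of the lipogenic genes it was highest in control, and its call for APAP against control (-2.14, adjusted p = 0.0202 by edgeR) was lost without control replicate 1 (0.0657) or control replicate 3 (0.0604). *Lpl*, the lipoprotein lipase, was also highest in control, with 0.77 FPKM in both COS+APAP libraries, 0.93 and 1.01 FPKM in APAP, and 1.58 and 1.47 FPKM in control. The adipokine *Lep* was at 0 in all 6 libraries. *Adipoq*, which encodes adiponectin, was at 0.10 and 0 FPKM in COS+APAP, 0.55 and 0.13 FPKM in APAP, and 0 FPKM in both control libraries. The lipid droplet gene *Plin1* was at 0 but for 0.04 FPKM in APAP replicate 1. *Cfd* had 0.05 and 0 FPKM in COS+APAP, 4.47 and 0.69 FPKM in APAP, and 0.93 and 0.08 FPKM in control. It did not pass in any comparison. *Retn* had 0.31 FPKM in APAP replicate 1, 0.03 FPKM in control replicate 1 and 0 elsewhere. *Lipe* had 2.92 and 2.42 FPKM in COS+APAP, 2.46 and 1.91 FPKM in APAP, and 2.50 and 2.71 FPKM in control.

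In FPKM, which is per length, *Scd1* led in COS+APAP, followed by *Thrsp*, *Me1*, *Mlxipl*, *Pklr*, *Fasn*, *Acly*, *Srebf1*, *Acaca* and *Elovl6*. The order was *Scd1*, *Me1*, *Mlxipl*, *Acly*, *Thrsp*, *Srebf1*, *Fasn*, *Pklr*, *Elovl6* and *Acaca* in APAP, and *Thrsp*, *Scd1*, *Mlxipl*, *Fasn*, *Pklr*, *Srebf1*, *Acly*, *Me1*, *Elovl6* and *Acaca* in control. Libraries of neighbouring genes overlapped for *Fasn* and *Acly* in COS+APAP, for *Thrsp* and *Srebf1*, *Srebf1* and *Fasn*, and *Fasn* and *Pklr* in APAP, and for *Pklr* and *Srebf1* in control (29.8 ± 1.12 and 28.3 ± 0.94 FPKM, SD, n = 2 each). The other neighbours in these orders did not overlap. Over the 6 libraries the mean profile of the 10 genes, as log2(FPKM + 1) relative to the control mean, was -1.66 and -1.86 in COS+APAP, -1.54 and -1.69 in APAP, and -0.03 and 0.03 in control. The 5 other tested genes nearest to this profile by Euclidean distance were *Nqo2* (0.124), which encodes a quinone reductase, *BC024386* (0.213), the immunity-related GTPases *Irgm2* (0.262) and *Ifi47* (0.268), and *Gm17753* (0.279).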

How the data were processed

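RNA of 6 mouse liver libraries in 3 groups was analysed from 1 table. The authors deposited estimated counts and FPKM for each gene in every library (per the file headers), and the submitters' processing notes name HISAT2 2.0 and StringTie 1.3.0. Neither labels nor headers name a build. Coordinates are those of the table, and 6 of the 10 genes have identical ones in GENCODE M21 (GRCm38). A further 6 value columns matched no sample and were not used. Counts were whole numbers and entered unchanged. Small counts pile up at 4 (766 to 990 genes a library, against 290 to 350 at 3), so that a fragment may stand for about 4 counts.

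A gene was tested where its FPKM averaged 1 or more over the libraries, with edgeR 4.0.16 (R 4.3.3): TMM scaling, quasi-likelihood F test, 1 model of 3 groups over 6 libraries with 3 residual degrees of freedom, Benjamini-Hochberg adjustment over 10051 genes, calls at adjusted p under 0.05. Standard errors are the log2 fold change over the square root of F, and 95% intervals use the moderated degrees of freedom. An exact permutation test of 2 libraries against 2 cannot go below p = 0.33. Alternatives were other scalings, filters and left-out libraries, counts divided by 4, fits of 2 groups alone, a replicate block, DESeq2 1.42.0, and limma 3.58.1 on log2(FPKM + 1) or log2(FPKM + 0.1).

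The members and gene lists were chosen with earlier results of these data known. Named are all members, their paralogs and, in each list and comparison, the 2 highest and 2 lowest called genes; for the comparisons with COS+APAP the text gives in full those whose call stood without any 1 library, beside *Insig1*, *Acsl5*, *Elovl5* and *Fads2*, chosen after their values were seen. Some genes that this rule picks are not reported here. A symbol with several entries was taken at the highest mean FPKM. The carbohydrate response element was added to the motifs later. *Scd1* has relatives of similar sequence, and reads may be shared between them.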

Additional observations from a re-analysis of the deposited data

How the results depend on the processing

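For APAP against control 7 to 8 of the 10 lipogenic genes were called without any 1 library, for COS+APAP against APAP 2 to 4 (2 without APAP replicate 1, COS+APAP replicate 2 or COS+APAP replicate 3; 5 with DESeq2's test, which adds *Acaca*), and for COS+APAP against control 7 to 8. A group left with 1 library is assumed to vary like the others. Over all tested genes the calls without 1 library numbered 3033 to 4117 for APAP against control (4561 with all libraries), 612 to 1941 for COS+APAP against APAP (2249) and 590 to 1716 for COS+APAP against control (2109). With a mean FPKM of at least 5, which tests fewer genes and leaves out *Acaca*, they were 2301, 1093 and 1295, and with DESeq2's own test 3552 for COS+APAP against APAP and 3422 for COS+APAP against control, where the cause was not tested. No called lipogenic gene changed direction under the alternatives run. Values near 0 turned sign: *Mlxipl* for COS+APAP against APAP was -0.01 with library totals, without APAP replicate 1 and without COS+APAP replicate 3; *Me1* was 0.02 for COS+APAP against APAP with upper quartile scaling, and for COS+APAP against control -0.03 with library totals and -0.01 with limma at either pseudocount; leaving out 1 library moved *Mlxipl* between -0.01 and 0.05; *Scd1* ran from -1.08 to 0.06 against APAP and from -1.07 to 0.06 against control, the values above 0 being those without COS+APAP replicate 3; and *Acacb* for APAP against control was -0.07 with upper quartile scaling, -0.10 with library totals, -0.07 and -0.08 with limma at pseudocounts of 1 and 0.1, and -0.07 without control replicate 1, against 0.19 without control replicate 3. With library totals the median of all genes moved to -0.15 for APAP against control, and that of the 10 genes to -1.81. With the titles' replicate number as a block, possible for APAP against control alone, 7 of the 10 genes were called and *Acaca* was not (adjusted p = 0.0514); deviations of same-numbered libraries correlated at 0.0175 across genes, so that the numbers were not taken to pair libraries. No paired analysis was possible for COS+APAP because it shares only the number 3 with the other groups. With 2 libraries a group, changes such as that of *Scd1* within its interval were not detectable.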
